A study of Drosophila melanogaster with 18 samples.

Results

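Ovaries of Marcal1del/del and yw females of Drosophila melanogaster, both reared at 20 °C, were compared on 6 of the 18 arrays of the series, 3 per genotype. The 6 arrays were chosen by the genotype and temperature in their titles. The yw flies, marked by mutations of the body colour gene yellow and the eye colour gene white, served as controls, and the Marcal1del/del flies were homozygous for a deletion in Marcal1. The same genotypes at 25 °C, and RpII2154/FM7 against RpII2154/FM7;Marcal1del/del at 20 °C, were used for reference, with 3 arrays in each of those 4 groups. RpII2154/FM7 females carry an allele of the gene for the largest RNA polymerase II subunit over the X-chromosome balancer FM7. The series title asks how disturbances of gene expression relate to the penetrance of SMARCAL1 mutations. The labels give neither the age of the flies nor the number of ovaries in a sample, and the sources used here do not say whether these stocks are otherwise alike. The differences below are therefore differences between these stocks.

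Marcal1 is the fly counterpart of human SMARCAL1, whose loss causes Schimke immuno-osseous dysplasia. The protein belongs to the SNF2 family, whose members use ATP to move along DNA. SMARCAL1 rewinds single strands of DNA that are coated with replication protein A and acts at stalled replication forks, and other family members remodel nucleosomes. A fly ovary holds egg chambers of all stages, in which germline cells are enclosed by somatic follicle cells that later secrete the eggshell.

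Levels are log2 RMA intensities of Affymetrix Drosophila Genome 2.0 probe sets, with 18769 probe sets tested and 11982 genes each represented by a single probe set. The medians of the 6 arrays lay between 4.14 and 4.2, and the correlation across probe sets was 0.988 to 0.997 within a group and 0.988 to 0.992 between the groups. The tissue label was checked on marker genes. The germline genes osk, nanos and orb stood at 12.35, 12.33 and 11.16 in yw and at 12.38, 12.36 and 11.09 in Marcal1del/del, while the testis gene Mst87F and the neuronal gene elav stood at 2.90 and 3.77 in yw, under every array median. The germline genes bam, grk and vas were dimmer, at 9.78, 7.81 and 5.79 in yw. Some markers of other tissues stood well above the medians in yw. Among them were Mlc1 of muscle (8.32), srp of hemocytes (8.47), apolpp of fat body (8.84) and hdly of the spermatheca (7.21). Others, such as Act88F of muscle (3.31) and Fbp1 of fat body (4.02), lay under them. Chorion genes, which build the outer eggshell, averaged 10.07 on yw replicate 1 but 12.84 and 12.59 on yw replicates 2 and 3, and 12.44 to 13.28 on the Marcal1del/del arrays. That array also held the lowest average of vitelline membrane genes, 9.18 against 10.91 to 12.12 on the other 5 arrays. The GAPDH control probe sets, whose 3′ signal over the 5′ signal is a sign of RNA integrity, gave a log2 difference of 1.12 to 1.21 on the yw arrays and 1.20 to 1.34 on the Marcal1del/del arrays. The actin control gave 0.90 to 1.04 on the yw arrays and 0.95, 0.98 and 1.23 on the Marcal1del/del arrays. Marcal1del/del replicate 3 had the highest value on both controls.

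The deleted gene was the check of the labels. Marcal1 measured 8.48, 7.53 and 7.81 in yw and 5.85, 5.90 and 5.87 in Marcal1del/del. The groups did not overlap, and the 3 mutant arrays lay within a far narrower range than the controls. The fall was 4.19-fold (log2 change -2.07 ± 0.22 SE, n = 3 per group, limma with Benjamini-Hochberg adjustment, adjusted p = 4.4e-05). The remaining signal lay above the array medians, and the sources used here do not place the probes relative to the deletion.

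No other member of the SNF2 family passed the test. Of 15 members measured, Marcal1 alone was called, where all genes together had 1.46% called, and the median log2 difference of the 15 was 0.03 (-0.04 to 0.11 without single arrays) against 0.01 over all genes. The largest rise among the others was that of Chd3, a nucleosome remodeller, at 0.33 ± 0.20 SE (limma, adjusted p = 0.83), followed by okr, the Rad54 counterpart of homologous recombination, at 0.26 ± 0.08 (adjusted p = 0.26). The remodeller genes Ino80 and brm were at -0.12 ± 0.13 and -0.07 ± 0.14.

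In the lists of DNA replication and repair genes a single gene was called. It made up 2.27% of the repair list, not far from the 1.46% of all genes. None of 37 DNA replication genes (helicase, polymerase, clamp and origin factors) was called, and their log2 differences ran from -0.34 for Psf1 to 0.43 for Sld5, both subunits of the GINS complex. Of 44 DNA repair and damage checkpoint genes, 37 had a positive difference, with a median of 0.17, but none was called as higher. Without Marcal1del/del replicate 3 or yw replicate 2 that median was 0.07 or 0.10. The largest were Fancm, a translocase of the Fanconi anaemia pathway, at 0.52 ± 0.21 SE (limma, adjusted p = 0.48), and mre11, a nuclease of break repair, at 0.49 ± 0.15 (adjusted p = 0.22).

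Pms2, a MutL subunit of mismatch repair, was the repair gene that fell. It measured 8.54, 8.35 and 8.25 in yw and 6.18, 5.75 and 5.87 in Marcal1del/del. The groups lay more than 2 log2 units apart, and the fall was 5.44-fold (-2.44 ± 0.14 SE, limma, adjusted p = 3.9e-08). None of 20 meiosis genes passed, where 1.46% of all genes did. Their range ran from -0.80 for corolla, a synaptonemal complex gene, to 0.53 for rec, a helicase gene of meiotic crossing over.

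Over all probe sets, 221 were called at an adjusted p under 0.05, 1.18% of those tested, with 99 higher and 122 lower. Of these, 190 name 1 gene, 8 several and 23 none. By the probe set that represents each gene, 79 genes rose (0.659%) and 96 fell (0.801%). All 175 had groups that did not overlap, as 12.7% of all genes did. The typical change was modest, with a median of 1.84-fold among the risen genes and 2.18-fold among the fallen. The fallen genes held more of the large changes, as 52 of them against 31 risen genes passed 2-fold and 18 against 8 passed 4-fold. Most called genes were well measured, since 144 lay above the highest array median in both groups. In 13 risen and 16 fallen genes the mean of the lower group was beneath all array medians, where a fold is a lower bound, and in 3 of them so was the other. The count of 221 fell to 142, 127 and 144 when yw replicate 2, yw replicate 3 or Marcal1del/del replicate 3 was left out, and it was 134 with only the 6 arrays fitted. It was 385 without yw replicate 1 and 2 arrays of other groups that stood apart by their eggshell or muscle genes, with 195 of the 221 among them.

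**Figure D1:**
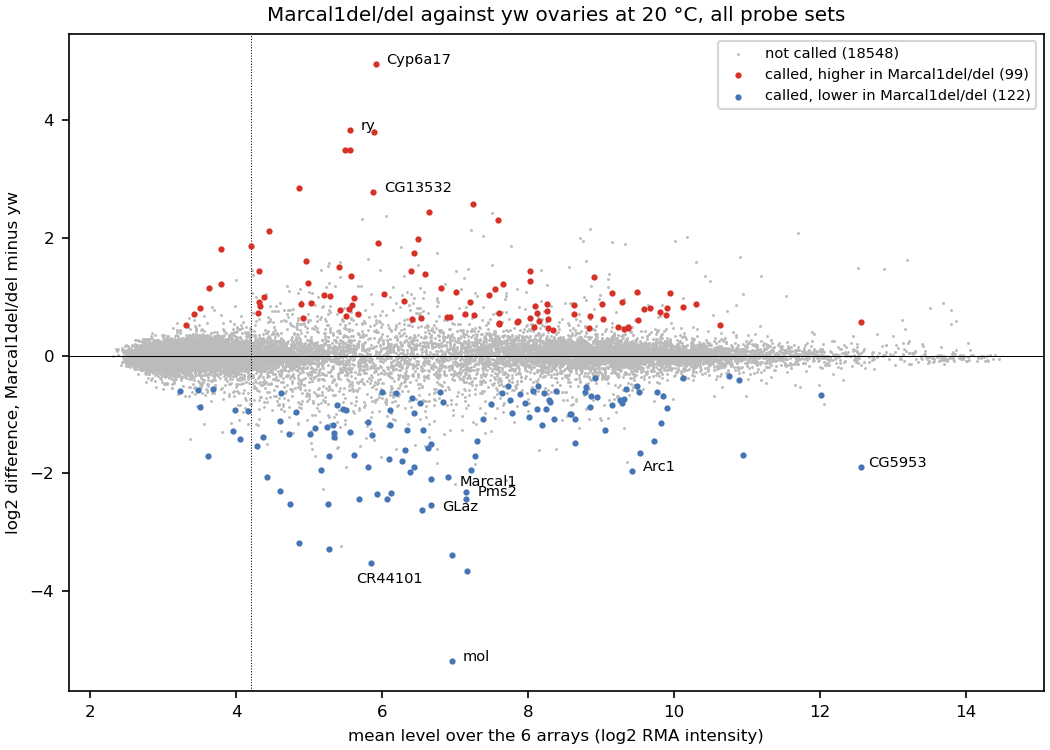
Each point is a probe set, with its mean level over the 6 arrays (log2 RMA intensity) on the horizontal axis and the log2 difference Marcal1del/del minus yw on the vertical axis; the dotted line marks the highest array median. The 99 higher and 122 lower called probe sets stand out at all levels, and Cyp6a17 and mol lie at the ends.

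The largest rise was that of Cyp6a17, a cytochrome P450 gene, which stood at 3.52, 3.18 and 3.6 in yw and at 8.68, 7.92 and 8.58 in Marcal1del/del. All 3 yw arrays were under the array medians and all 3 mutant arrays well above them, a rise of at least 31.1-fold (4.96 ± 0.20 SE, limma, adjusted p = 6.6e-10). CG5096 showed the same form, with 3.86, 3.81 and 3.75 in yw and 6.90, 7.68 and 7.34 in Marcal1del/del (at least 11.3-fold). CG14502 went from 3.45, 3.54 and 3.32 to 6.26, 6.29 and 6.29, with mutant arrays that lay very close together. Genes near the floor in yw ovaries and well above it in the mutant stock thus led the list.

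Among genes measured in both groups, CG4676 rose 4.92-fold, from 6.8, 6.24 and 6.27 to 8.85, 8.64 and 8.72. Mrp5, a transporter of the ABC family, rose 3.34-fold (1.74 ± 0.13 SE, limma, adjusted p = 5.8e-07), from 5.57, 5.54 and 5.6 to 7.25, 7.35 and 7.33. It was the sole called gene of 17 ABC and MFS transporter genes (5.88%, against 1.46% of all genes), and the arrays of each group lay close together. The cell division gene jtb rose 3.94-fold and TBC1D16, whose family activates the GTPase activity of Rab proteins, rose 2.70-fold. CG42598, CG42254 and CG6830, also among the 20 largest rises, each lost their call when any of several arrays was left out, among them yw replicates 2 and 3 and Marcal1del/del replicate 3 (adjusted p up to 0.18, 0.14 and 0.29). CG13032 lost it in 10 of 12 alternative settings, and it stood at 3.57 on Marcal1del/del replicate 2 against 5.15 and 5.40 on the other mutant arrays.

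The largest fall was that of mol, which encodes the maturation factor of the NADPH oxidase Duox. It measured 10.10, 9.38 and 9.16 in yw and 4.81, 4.02 and 4.25 in Marcal1del/del. The control arrays put mol among the well expressed genes of the ovary and the mutant arrays put it near the array medians, a 36.5-fold fall (-5.19 ± 0.29 SE, limma, adjusted p = 3.2e-08). The noncoding RNA CR44101 fell at least 11.5-fold, from 7.95, 7.41 and 7.46 to 4.39, 4.09 and 3.78, with a mutant mean under the array medians. Ccdc85, a coiled-coil gene, went from 5.6, 6.02 and 5.66 to under the array medians, at 3.44, 3.22 and 3.72.

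Naprt, the nicotinate phosphoribosyltransferase of NAD synthesis, fell 4.29-fold, from 7.94, 7.59 and 7.65 to 6.0, 5.29 and 5.59 (-2.10 ± 0.19 SE, limma, adjusted p = 1.1e-05). Arc1, a capsid-forming gene derived from a retrotransposon Gag protein, was the brightest of the 20 largest falls, with 9.89, 10.85 and 10.49 in yw and 8.03, 8.86 and 8.46 in Marcal1del/del. Its groups did not overlap, as in all 175 called genes, and the fall was 3.90-fold (-1.96 ± 0.28, limma, adjusted p = 0.00087). Less firm were CG42807, lncRNA:CR32368 and CG17224. The first lost its call without any of 5 of the 6 arrays, the exception being yw replicate 1, and the last when replicate 2 or 3 of either group was left out (adjusted p up to 0.20 and 0.25). The second lost it when replicate 2 of either group or yw replicate 3 was left out (up to 0.14), and its yw replicate 1 stood at 4.73 against 7.26 and 7.38.

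**Figure D2:**
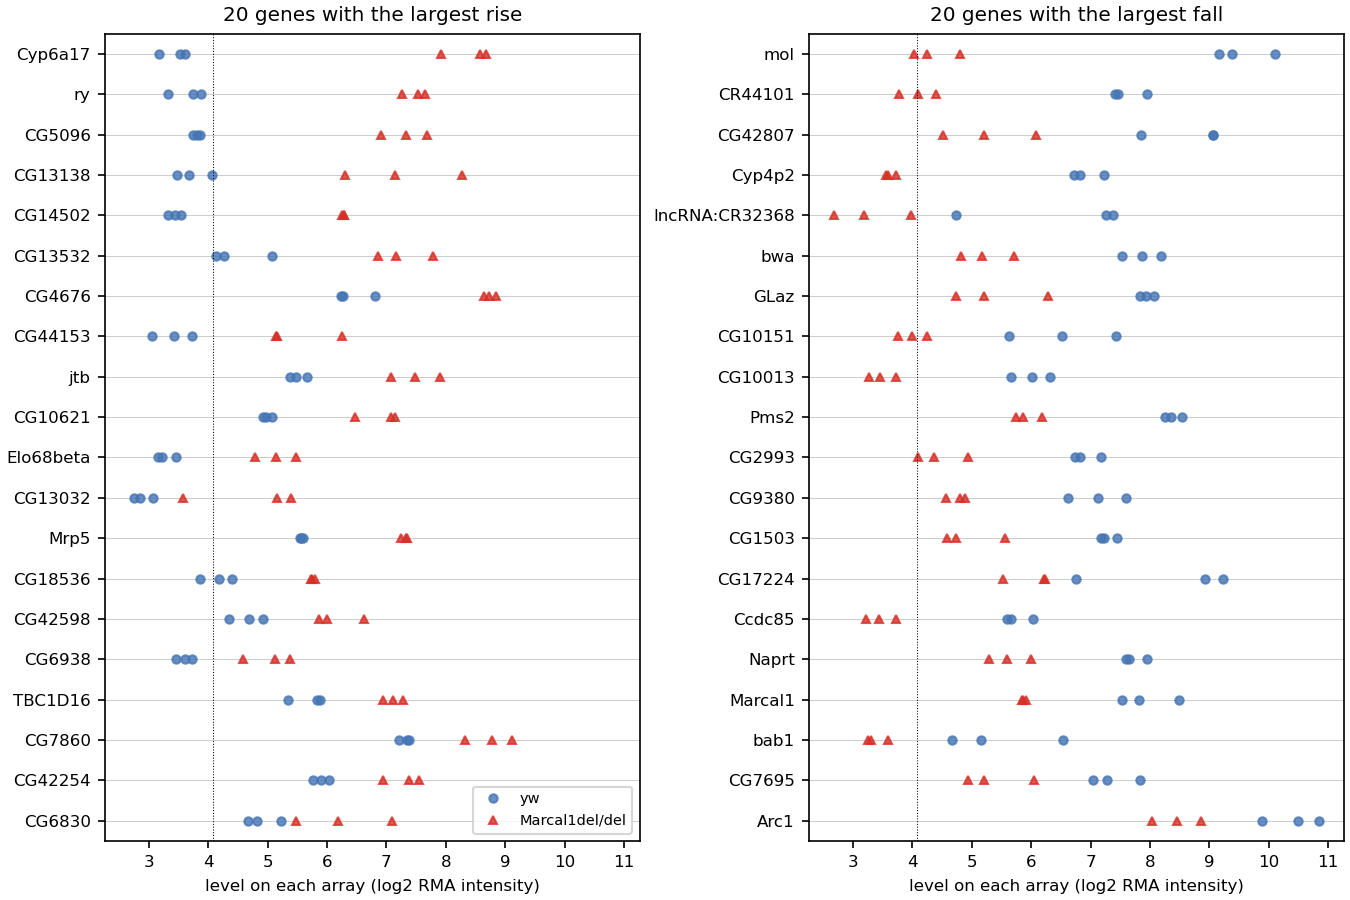
Level on each array (log2 RMA intensity) of the 20 most risen and 20 most fallen called genes, with yw as circles and Marcal1del/del as triangles; the dotted line marks the lowest array median of the series. Only called genes whose groups did not overlap were eligible, so the separation shown is set by the choice. Several risen genes lay left of the dotted line in yw.

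Cytochrome P450 enzymes, which oxidise hormones and foreign compounds, were the list with the most called genes among those of detoxification. Of 82 measured, 2 rose and 7 fell, 11% of the list against 1.46% of all genes, and the list's median difference was -0.07 (-0.15 to -0.02 without single arrays). Of the 82, 42 had a mean level above the array medians. The count was 5 without yw replicate 3 or Marcal1del/del replicates 2 or 3, and 14 without the 3 arrays that stood apart. Cyp4p2 fell at least 9.81-fold, from 6.72, 7.23 and 6.82 in yw to 3.56, 3.6 and 3.73 in Marcal1del/del, all under the array medians (-3.29 ± 0.20 SE, limma, adjusted p = 4.8e-08). Cyp6d2 fell 2.27-fold, from 6.86, 6.73 and 6.53 to 5.65, 5.33 and 5.59. Cyp4e2, the brightest called member, rose 2.09-fold, from 9.35, 9.37 and 9.52 to 10.58, 10.30 and 10.56. In none of these genes did an array of one genotype reach the range of the other, as in all 175 called genes.

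All 9 called P450 genes lie on the right arm of chromosome 2, where 6 of them form 3 pairs of neighbours in the order of measured genes. How many of the P450 genes measured lie on that arm was not counted, so their location has no base to be set against. Cyp4p1, next to Cyp4p2, fell with it (-1.34 ± 0.17 SE, limma, adjusted p = 0.00031). Cyp6a13 and Cyp6a14 fell by 1.5 and 0.63 on the log2 scale. Cyp6a23, the neighbour of Cyp6a17, went the other way, from 6.26, 5.49 and 5.81 to 4.97, 4.23 and 4.72 (-1.21 ± 0.27, adjusted p = 0.035). Cyp6a13, Cyp6a14, Cyp6a23 and Cyp6a9 (-0.92 ± 0.18) lost their calls without 1 or more single arrays, among them yw replicate 3 and Marcal1del/del replicates 2 and 3 for each (adjusted p up to 0.075, 0.19, 0.19 and 0.073). These neighbours are paralogues, and whether their probes bind each other's transcripts was not tested.

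Of 34 genes of glutathione transferases, which conjugate foreign compounds, 2 were called (5.88%, against 1.46% of all genes). GstE13 rose 2.11-fold, from 8.96 ± 0.35 to 10.04 ± 0.11 (SD, n = 3), and GstT3 fell 1.48-fold, from 9.57, 9.67 and 9.66 to 9.07, 9.04 and 9.10. Both pairs of groups were separate, as in all 175 called genes, and the GstT3 arrays lay close together within each group. Of 35 UDP-glycosyltransferase genes, only Ugt35A1 was called, 2.86% of that list (0.71 ± 0.16 SE, limma, adjusted p = 0.043), and it lost the call in 7 of 13 alternative settings, such as that without yw replicate 2 (adjusted p up to 0.25).

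Apart from mol, enzymes that make or remove reactive oxygen species differed little. Of 20 measured, mol and Prx6c were called (10%, against 1.46% of all genes). Prx6c, a peroxiredoxin gene, rose 2.39-fold, from 7.60, 6.84 and 7.77 to 9.21, 8.28 and 8.49 (1.26 ± 0.28 SE, limma, adjusted p = 0.037). The call was lost when replicate 1 of either group, yw replicate 2 or Marcal1del/del replicate 3 was left out (adjusted p up to 0.22). The oxidase gene Nox was at -0.89 ± 0.39 (adjusted p = 0.57), the superoxide dismutase gene Sod2 at 0.04 ± 0.14 and the catalase gene Cat at 0.14 ± 0.15.

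The purine gene ry, which encodes xanthine dehydrogenase, measured 3.87, 3.75 and 3.32 in yw and 7.65, 7.52 and 7.26 in Marcal1del/del. All control arrays lay under the array medians and all mutant arrays far above them (at least 14.2-fold, 3.83 ± 0.33 SE, limma, adjusted p = 5.5e-06). The gene ry was the sole called gene of 16 on the purine, pteridine and molybdenum cofactor list (6.25%, against 1.46% of all genes). In each group 6 of the 16 had means under every array median, where changes are poorly resolved. Among the 15 not called were mal (0.21 ± 0.12), which sulphurates the cofactor that xanthine dehydrogenase needs, and the cofactor synthesis gene Mocs1 (-0.03 ± 0.14). Among nucleotide and folate genes picked after their values were seen, Rim2, a mitochondrial pyrimidine nucleotide carrier, rose by 0.91 ± 0.14 from 6.75 ± 0.21 to 7.67 ± 0.18 (SD, n = 3, adjusted p = 0.002). Ada, adenosine deaminase (1.08 ± 0.23), Ts, thymidylate synthase (0.81 ± 0.19), Mthfs, a folate cycle enzyme (-0.82 ± 0.16), and Nadk1a, an NAD kinase (0.48 ± 0.10), were called too but each lost the call without 3 or more of the single arrays.

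Of 33 genes of lipid metabolism, 3 fell and none rose, 9.09% of the list against 0.801% of all genes that fell. This list, like the others, was drawn up with earlier results of these data known, so its share may be partly set by the choice. In all, 26 had a negative difference, and the median was -0.18. The alkaline ceramidase gene bwa measured 7.53, 8.18 and 7.87 in yw and 5.71, 5.18 and 4.82 in Marcal1del/del, a 6.16-fold fall (-2.62 ± 0.26 SE, limma, adjusted p = 2.7e-05). GLaz, a lipocalin related to human apolipoprotein D, fell 5.80-fold, from 7.84, 7.93 and 8.07 to 6.29, 5.21 and 4.73. The control arrays lay close together for GLaz, and the mutant arrays were far more scattered.

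SCAP, which escorts the sterol-responsive transcription factor SREBP, fell 2.00-fold, from 9.11, 9.05 and 9.07 to 8.02, 7.87 and 8.34 (-1.0 ± 0.11 SE, limma, adjusted p = 0.00011). SREBP itself was at -0.53 ± 0.12 (adjusted p = 0.053) and the fatty acid synthase gene FASN1 at -0.57 ± 0.44. Elo68beta, a fatty acid elongase gene outside the list, rose from 3.22, 3.15 and 3.46, under the array medians, to 5.48, 4.79 and 5.14. Of energy metabolism genes picked after their values were seen, AcCoAS, acetyl-CoA synthetase, fell 2.21-fold from 10.23, 10.51 and 10.46 to 9.27, 9.35 and 9.15. Idh3b (-0.53 ± 0.12) and the mitochondrial pyruvate carrier gene Mpc1 (-0.38 ± 0.08) fell less and lost their calls without some single arrays. None of 72 oxidative phosphorylation genes was called, where 1.46% of all genes were.

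Genes that define the ovary were mostly level between the stocks. With 1.46% of all genes called, a short list can hold no call at that share. None of 31 maternal and germ plasm genes was called, with differences from -0.58 for bam, the switch to germline differentiation, to 0.40 for exu, which localises bicoid mRNA. None of 29 piRNA pathway genes was called, with a range of -0.51 to 0.32, nor was any of 4 yolk genes. All 11 chorion genes had positive differences, with a median of 1.0, but none was called, and without yw replicate 1 that median was 0.22. The median of 7 vitelline membrane genes was 0.89, and 0.30 without that array, again with none called.

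In the follicle cell list 1 of 20 genes passed (5%, against 1.46% of all genes). The gene was bab1, a transcription factor of ovarian somatic cells that is needed for the terminal filaments, at 6.53, 5.15 and 4.67 in yw and 3.26, 3.6 and 3.30 in Marcal1del/del. The mutant arrays lay under every array median, and the control arrays ran over almost 2 log2 units, with yw replicate 1 highest. The fall was at least 4.18-fold (-2.06 ± 0.31 SE, limma, adjusted p = 0.0013), and with only the 6 arrays fitted the adjusted p was 0.12. Its paralogue bab2 was at -0.40 (adjusted p = 0.98). Fewer cells of a type and less RNA per cell cannot be told apart in whole ovaries.

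Housekeeping and stress lists held no called gene. As 1.46% of all genes were called, lists this short can hold none at that share. These were 28 genes of RNA polymerase II and elongation, 41 of the cytosolic ribosome, 40 of the proteasome, 25 heat shock and chaperone genes, 26 immune genes and 24 ecdysone genes, with medians from -0.14 to 0.04. The immune effector genes Def and Mtk had differences of -1.59 and -1.29, with adjusted p of 0.88 and 0.83 in limma.

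Markers of other tissues were examined for each list as a whole. Of 20 muscle genes, 16 had negative differences (median -0.30), and the list averaged 6.01 to 6.49 on the yw arrays and 5.78 to 6.09 on the Marcal1del/del arrays. The median was -0.55 without yw replicate 1, and -0.15, -0.20 and -0.19 without yw replicate 2, yw replicate 3 and Marcal1del/del replicate 3. TpnC4, a muscle troponin C gene, was its called member, at 4.40, 4.82 and 4.19 against 2.78, 2.76 and 2.76, and without yw replicate 2 its adjusted p was 0.07. Of 15 hemocyte genes, PPO3, the prophenoloxidase of lamellocytes, rose by 0.88 ± 0.18 SE to 5.33 (limma, adjusted p = 0.021), and lost its call when replicate 3 of either group or yw replicate 2 was left out. The hemocyte list averaged 5.40 to 5.69 on the yw and 5.14 to 5.45 on the mutant arrays. No gene of the fat body (8), gut (20), spermatheca and oviduct (9), testis (16) or neuron (14) lists was called, nor any of 212 chemosensory receptor and binding protein genes. In yw, 191 of the chemosensory, 15 of the testis, 12 of the gut and 9 of the neuron genes had means under every array median. Changes are poorly resolved there, and only 1.46% of all genes were called, so the lack of calls says little about these lists. What part tissue carried with the ovaries has in the results was not tested.

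Some regulators and a collagen gene outside the lists, picked after their values were seen, kept their calls without any single array. HDAC1, a histone deacetylase, fell by 0.68 on the log2 scale, from 10.31, 10.13 and 10.15 to 9.38, 9.48 and 9.66 (SE 0.10, limma, adjusted p = 0.00099). LBR, the lamin B receptor of the inner nuclear membrane, rose by 0.86 ± 0.12, from 8.36, 8.03 and 8.23 to 8.93, 9.0 and 9.28. Mp, a collagen of basement membranes, fell 3.85-fold, from 7.89, 8.58 and 8.10 to 6.42, 5.92 and 6.41. Its dimmer probe set, near the array medians, was not called and stood at 4.33 in yw and 4.35 in Marcal1del/del. On the probe sets called, the arrays of the genotypes were separate in all 3 genes, as in all 175 called genes. Topors, a ubiquitin and SUMO ligase, rose by 0.72 ± 0.12 and kept its call in the same settings, though its adjusted p was 0.069 with only the 6 arrays fitted. Dad, the inhibitory Smad of BMP signalling, fell by 0.91 (SE 0.16, adjusted p = 0.0067), and its adjusted p was 0.0505 without yw replicate 3. The adhesion genes Nrg (-0.99 ± 0.18), rst (-1.69 ± 0.36), kek5 (-0.64 ± 0.13) and dpr6 (-0.96 ± 0.19) were called lower, as was msl-1 of the dosage compensation complex (-0.52 ± 0.11), while Taf7 of TFIID was called higher (0.66 ± 0.15). Each of these 6 lost its call without at least 2 of the single arrays, yw replicate 3 among them.

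Probe sets of the same gene often differed in whether they were called. Of 32 genes with several probe sets and at least 1 call, every probe set was called for 1 and only some for 31. Of the 21 with at least 2 probe sets above the highest array median, only some were called for 20. Calls in opposite directions were made in 2 genes. A probe set that was not called could still move the same way, as in Arc1 (-1.96 called and -1.09 not called). It could also stay nearly level, as in Nop60B below. Ptp10D, a receptor tyrosine phosphatase gene, had a probe set that rose from 7.05 ± 0.33 to 8.27 ± 0.17 (SD, n = 3) and another that fell from 6.77 ± 0.09 to 6.05 ± 0.13, both called (limma, adjusted p = 0.00079 and 0.0016). The transcription factor gene lola, which makes many splice forms, had 15 probe sets, of which 1 rose by 1.23 ± 0.18 and 1 fell by 1.08 on the log2 scale. Nop60B, the pseudouridine synthase of ribosomal RNA modification, was at 12.34 and 12.21 on its brighter probe set, which was not called, and fell from 11.51, 12.07 and 11.81 to 9.95, 10.24 and 10.16 on the other (-1.68 ± 0.14, adjusted p = 3.7e-06). For Ptp10D, lola and Nop60B a call therefore holds for the probe set that gave it and not for the gene as a whole. Mp, kek5 and dpr6 also had a level probe set that was not called (0.015, 0.06 and 0.07 on the log2 scale). Those probe sets lay near or under the array medians, and the calls of Mp, kek5 and dpr6 likewise hold for the probe set that gave them. Where the probe sets lie in these genes was not used here.

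The share of genes called differed between chromosomes. On chromosome 2, which carries Marcal1 on its left arm, 100 of 4632 measured genes were called (2.16%), with 47 on 2L (2.13%) and 53 on 2R (2.18%). On chromosome 3 the share was 0.997% (53 of 5318), and on X 1.01% (19 of 1873). Chromosome 2 thus held 57.1% of the called genes and 38.7% of the measured ones. Among genes bright on average over the series the shares were 3.45% on 2L and 3.44% on 2R, against 1.28% to 1.56% on X, 3L and 3R. Across the alternative settings chromosome 2 held 53.5% to 65.3% of the called genes. No test was made of this difference, as genes are not independent replicates.

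At 20 °C without RpII2154/FM7, none of the 50 measured genes nearest to Marcal1 in gene order (25 on each side) was called, nor of the 20 nearest. Between RpII2154/FM7;Marcal1del/del and RpII2154/FM7, 7 of the same 50 and 2 of the 20 were called, against 60 of 2204 genes on the arm. In the comparison of Marcal1del/del with yw at 20 °C, of the 100 nearest 1 was called, CG15443, which fell by 0.65 on the log2 scale, and of the 400 nearest 8 were (2%), close to the 2.09% of the whole arm. Naprt, Ccdc85 and CG17224 were among these 8. Of the 173 called genes with a position, 18 formed 9 pairs of neighbours in the order of measured genes. Of the pairs, 8 were on chromosome 2 and 8 had both genes moving the same way. Of the paired genes, CG17224, CG4502, CG13784, Aasdh, Agpat2, Cyp6a13, Cyp6a14 and Cyp6a23 lost their calls in some alternative settings. How many pairs a random order of genes would give was not worked out. CG14502 and CG18536, neighbours on 2R, rose together by 2.84 and 1.61 on the log2 scale, Ccdc85 and CG17224 fell together by 2.30 and 2.31, and ry and its neighbour l(3)87Df rose by 3.83 and 0.82. Cyp6a17 and Cyp6a23 were the pair that went opposite ways.

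**Figure D3:**
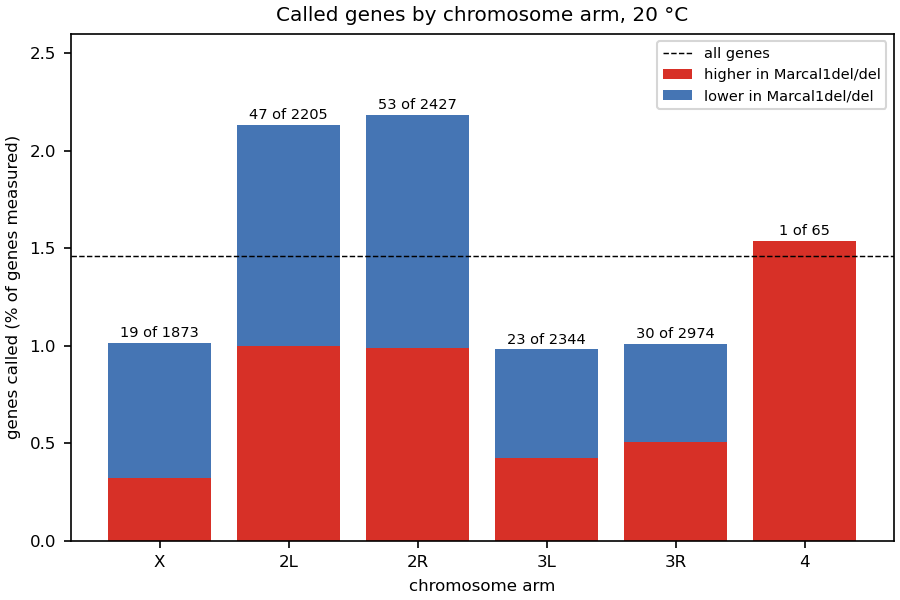
Share of measured genes called at 20 °C on each chromosome arm (percent), split into genes higher and lower in Marcal1del/del, with counts above the bars and the share over all genes (1.46%) as a dashed line. Both arms of chromosome 2 lie above the dashed line, and X and both arms of chromosome 3 lie below it.

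The same stocks at 25 °C gave the same direction for nearly all called genes. The 25 °C arrays are not part of the 20 °C difference, but they entered the choice of the genes through the estimate of spread that all groups share. Of the 79 risen genes 78 had a positive difference at 25 °C and 46 were called higher, where 0.659% of all genes were. Of the 96 fallen genes 95 had a negative difference and 61 were called lower, against 0.893% of all genes, and 0 were called the opposite way. For 64 risen and 72 fallen genes all 6 Marcal1del/del arrays lay beyond all 6 yw arrays of both temperatures, as was the case for 182 and 193 genes in the whole table. At 25 °C mol went from 9.66 to 4.66, Cyp6a17 from 3.48 to 7.53, ry from 3.55 to 7.32 and Mrp5 from 5.19 to 7.57.

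The size of the difference changed with temperature in 2 genes only, out of all probe sets tested (0.0107%). Pms2 stood at 8.22, 8.85 and 8.56 in yw and 7.84, 7.90 and 8.02 in Marcal1del/del at 25 °C, so that its fall was 5.44-fold at 20 °C but log2 -0.62 ± 0.14 SE at 25 °C (difference 1.82 ± 0.20, limma, adjusted p = 0.001). The low level was seen in Marcal1del/del at 20 °C alone among the 6 groups. The receptor gene otk2 rose from 4.48, 4.69 and 4.59 to 5.59, 5.46 and 5.37 at 20 °C, and from 4.51, 4.71 and 4.51 to 7.63, 7.71 and 7.38 at 25 °C (difference 2.11 ± 0.15, adjusted p = 2.6e-06). Both genes kept this call in all 12 alternative settings tested, and the number of such probe sets was 13 without the 3 arrays that stood apart.

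The genes were also followed between RpII2154/FM7;Marcal1del/del and RpII2154/FM7. Of the 79 genes that rose, 45 had a positive difference there, 9 were called higher and 4 lower, where 1.06% and 1.21% of all genes were. Of the 96 that fell, 50 had a negative difference, 14 were called lower and 6 higher. Called in the same direction in all 3 comparisons were 6 risen and 11 fallen genes, Marcal1 included. The risen ones were CG14502, CG18536, CG13532, CG10444, CG11788 and Topors, and the fallen ones included CR44101, GLaz, Ccdc85 and Naprt.

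Naprt measured 8.97, 8.36 and 8.87 in RpII2154/FM7 and 5.67, 5.83 and 6.18 in RpII2154/FM7;Marcal1del/del, and CG13532 measured 3.82, 3.73 and 4.24 against 8.10, 8.28 and 8.13. Both were farther apart there than between Marcal1del/del and yw, though the difference between backgrounds was not called for either (limma, adjusted p = 0.29 and 0.25). For GLaz the change was -2.47 ± 0.32 SE against -2.54 ± 0.32 at 20 °C without RpII2154/FM7. Of the 17 genes, CG14502 and CG18536 are neighbours, as are CG10444 and CG11788.

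A difference between the effects in the 2 backgrounds was called for 182 probe sets (0.97%), and among the 175 genes for 30 risen and 42 fallen ones, each with a smaller or opposite effect beside RpII2154/FM7. The 20 °C arrays that chose the genes enter that difference, so its direction is partly set by the choice. The largest was that of mol, at 9.14, 9.57 and 9.60 in RpII2154/FM7 and 9.77, 9.77 and 9.36 in RpII2154/FM7;Marcal1del/del (difference 5.38 ± 0.40 SE, limma, adjusted p = 1.2e-06). Both of these stocks thus had the level of yw. Cyp6a17 stood at 8.29, 8.33 and 8.38 and at 8.12, 8.23 and 8.15, so that both had the level of Marcal1del/del. The array names in the labels carry one code for the RpII2154/FM7 stocks and another for all yw and Marcal1del/del samples, and what that code stands for cannot be told apart from the RpII2154/FM7 genotype.

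The stock RpII2154/FM7, which carries no Marcal1 deletion by its label, lay nearer to the Marcal1del/del mean than to the yw mean for 34 of the 79 risen and 40 of the 96 fallen genes. RpII2154/FM7;Marcal1del/del lay nearer to the yw mean for 35 and 49. Both RpII2154/FM7 stocks were on the Marcal1del/del side for 27 and 26 genes, both on the yw side for 28 and 35, and split the way their Marcal1 genotypes do for 17 and 21. They split against their Marcal1 genotypes for the remaining 7 and 14. Cyp4e2, GstE13 and Cyp6a17 were of the first kind, and mol and Pms2 of the second. GLaz, Naprt and CG13532 were of the third. How often the same splits arise over all genes was not counted, so these counts do not set the called genes apart from others.

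**Figure D4:**
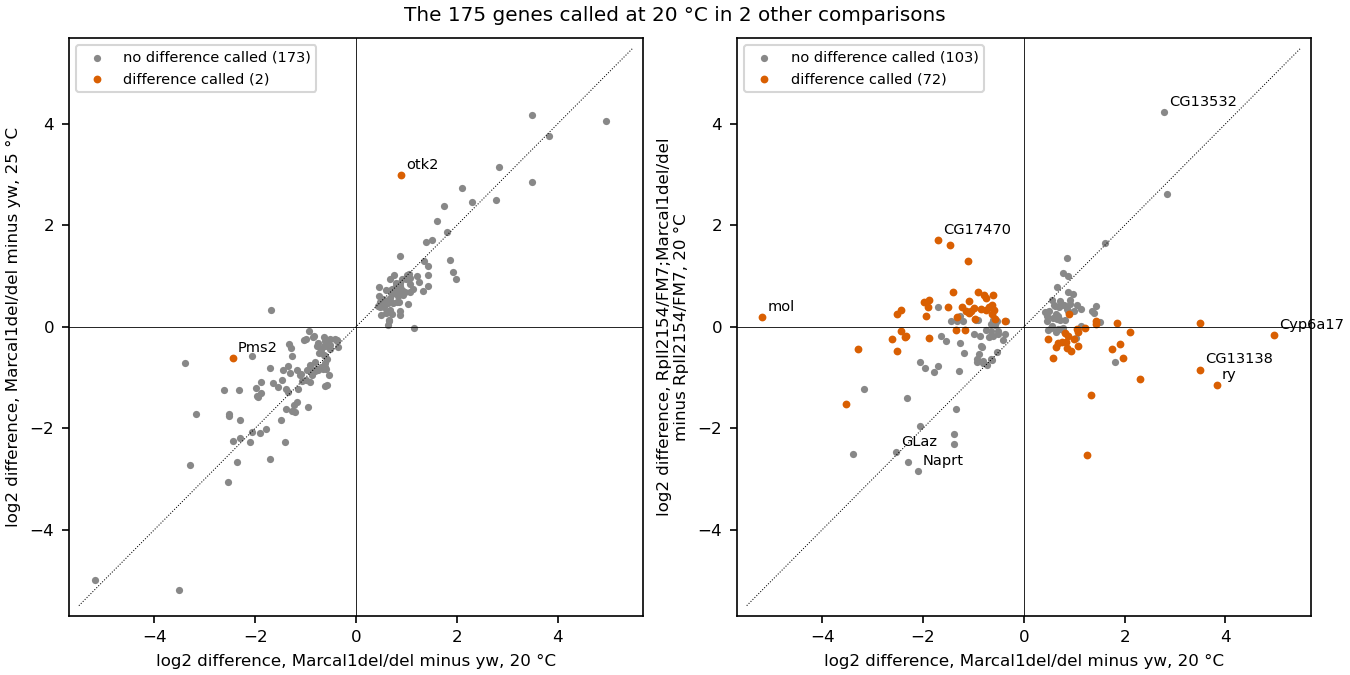
Log2 differences of the 175 called genes at 20 °C (horizontal) against those of the same genotypes at 25 °C (left) and of RpII2154/FM7;Marcal1del/del minus RpII2154/FM7 (right), with called differences between effects in orange and equality as a dotted line. At 25 °C nearly all genes keep their sign, and in the RpII2154/FM7 stocks many lie near 0.

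**Figure D5:**
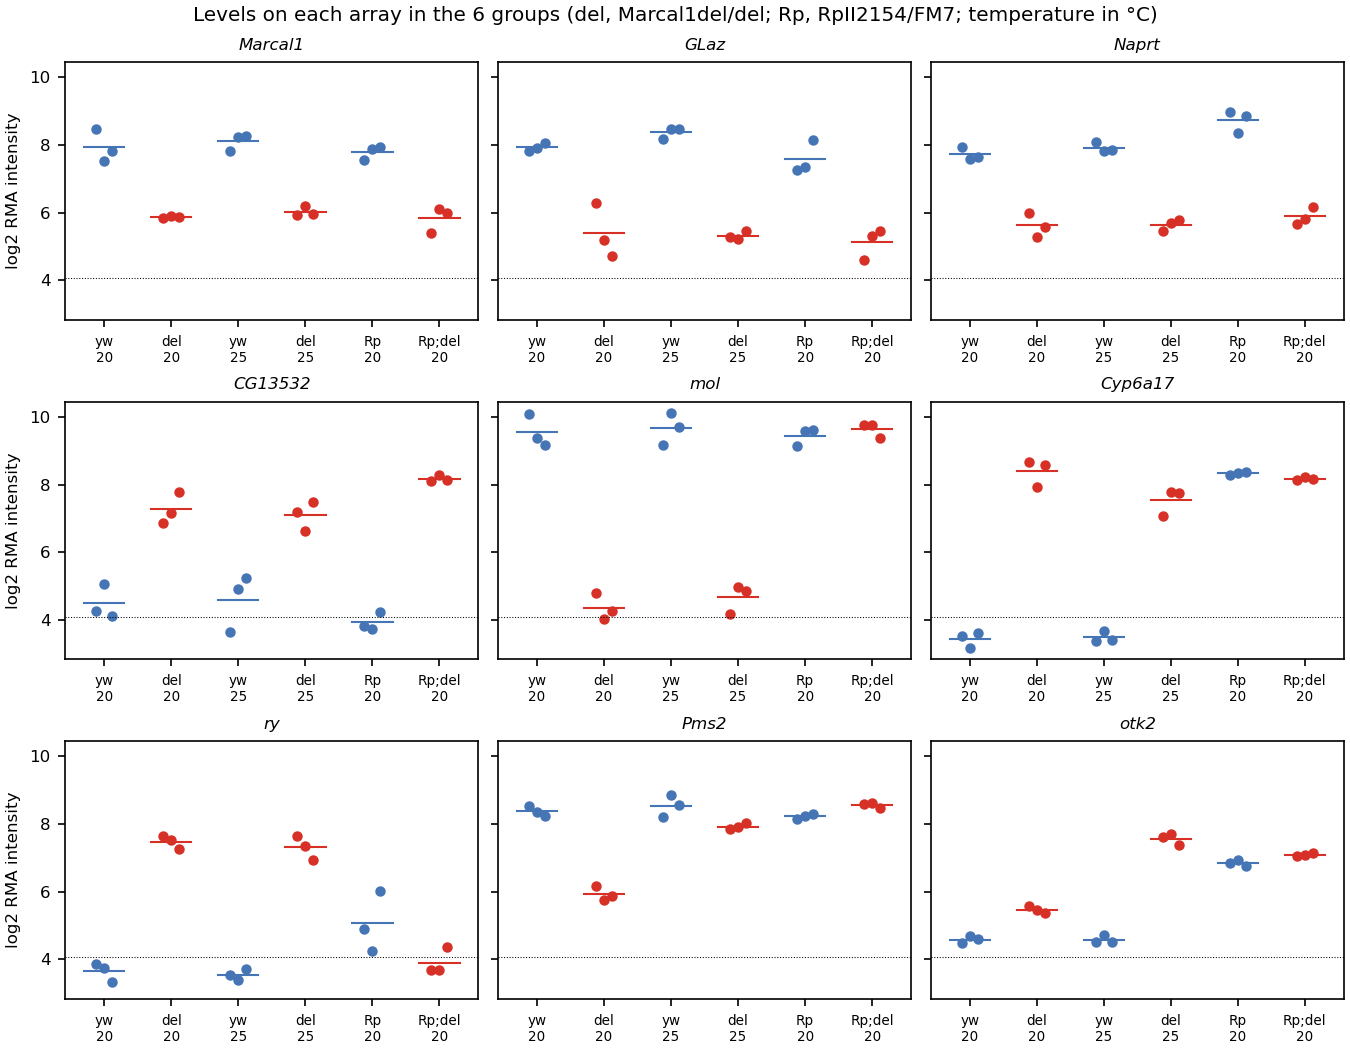
Level on each array (log2 RMA intensity, points) and group mean (lines) of 9 genes in the 6 groups, with groups carrying the Marcal1 deletion in red and the lowest array median as a dotted line. Marcal1, GLaz, Naprt and CG13532 follow the Marcal1 genotype in all stocks, mol, Cyp6a17 and ry do so only without RpII2154/FM7, and Pms2 and otk2 change with temperature in Marcal1del/del.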

How the data were processed

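The deposited values are log2 expression values of 18952 probe sets on 18 arrays, made by the authors with RMA per the submitters' processing notes; the sources used here name no version. RMA normalizes across arrays, which would hide a shift common to most transcripts. After 183 control probe sets were left out, 18769 were tested without a filter. The platform annotation, with symbols updated against Release 6, named 1 gene for 13647 of them, several for 402 and none for 4720. A gene was represented by the probe set that was brightest on average over the 18 arrays, and only gene order and chromosome arms were taken from Release 6.

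Contrasts came from a limma model with a group term (limma 3.58.1, R 4.3.3) of the 18 arrays, 2-sided, with Benjamini-Hochberg adjustment over all probe sets of a contrast and calls at an adjusted p under 0.05. The procedure was tested on simulated data. By the design text, replicates were independent biologically. The genotype fields of 2 RpII2154/FM7 arrays name other balancers, and the titles were followed. Gene lists and members were chosen with earlier results of these data known. Named were Marcal1, the 20 largest rises and falls among called genes with groups apart (and the 10 largest above all array medians), called list members, called neighbours, up to 8 called genes with the largest called difference for each contrast of effects, and genes said to be picked after their values were seen. Alternatives were other sets of arrays, a replicate block, a filter on dim probe sets, a variance trend, a further quantile normalization and the median probe set of a gene; counts of P450 genes and chromosome 2 shares under them were chosen after seeing the data.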

Additional observations from a re-analysis of the deposited data

Results flagged for a closer look

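For 30 risen and 42 fallen genes the Marcal1del/del effect at 20 °C differed with the RpII2154/FM7 background by the test of the difference itself (limma, Benjamini-Hochberg adjustment over all probe sets), and the 8 with the largest difference are given here. The difference of log2 effects was -5.12 ± 0.28 SE for Cyp6a17, -4.99 ± 0.47 for ry, -4.34 ± 0.61 for CG13138, -3.80 ± 0.40 for Prx6c, -3.43 ± 0.28 for CG5096 and -3.33 ± 0.25 for CG4676. It was 5.38 ± 0.40 for mol and 3.41 ± 0.26 for CG17470. CG4676, Prx6c and CG17470 were called in opposite directions in the 2 backgrounds, with CG4676 at 2.30 and -1.04, Prx6c at 1.26 and -2.54 and CG17470 at -1.70 and 1.71. All 8 kept the call in the 11 alternative settings that allow this contrast. The RpII2154/FM7 genotype and the code in the array names cannot be told apart.

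For Pms2 and otk2 the Marcal1del/del effect differed between 25 and 20 °C, by 1.82 ± 0.20 SE (limma, adjusted p = 0.001) and 2.11 ± 0.15 (adjusted p = 2.6e-06). Beside RpII2154/FM7 at 20 °C, without and with the Marcal1 deletion, Pms2 stood at 8.23 and 8.55 and otk2 at 6.84 and 7.09.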

How the results depend on the processing

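The count of 221 probe sets at 20 °C was 134 with only the 6 arrays fitted (114 shared), 385 without the 3 arrays that stood apart (yw replicate 1 at each temperature and RpII2154/FM7 replicate 3), and 127 to 246 when single arrays were left out. It was 181 with the 12 yw and Marcal1del/del arrays, 232 with the filter, and 212 with the variance trend and with quantile normalization. The 2 probe sets that differed with temperature became 13 without the arrays that stood apart and stayed 2 without any single array. The 182 that differed with RpII2154/FM7 became 349, and 136 to 194 without single arrays. The 9 called P450 genes became 14, and 5 to 9 without single arrays. With the median probe set of each gene, 165 genes were called in place of 175, with 155 shared. Replicate numbers did not pair the arrays (correlations of deviations 0.16, 0.35 and -0.13 for equal numbers), and the replicate block gave 196 calls, 166 for the difference with RpII2154/FM7 and 2 for that with temperature. Of 87 named calls at 20 °C, 52 were kept in all settings that tested them and 35 lost in at least 1, and none changed sign. Over all 175 genes, 85 kept their call without any single array, as did 59 of the 83 past 2-fold. With 3 arrays a group, small changes and genes near the array medians are poorly resolved, and no detection call was used.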
